A study of Xenopus laevis with 6 samples.

Results

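The Wnt ligand family was taken as every row of the deposited gene table whose name begins with wnt and a digit, with any homeolog ending. This gave 30 rows of 20 gene names among 42549 rows, and all 30 names match a symbol of the RefSeq annotation of Xenopus laevis. Xenopus laevis is an allotetraploid frog, so a gene can have 1 copy on each of 2 subgenomes. The endings .L (17 Wnt rows) and .S (13 Wnt rows) mark these copies, which are known as homeologs. For 10 of the 20 gene names both copies had a row, and for the other 10 a single one.

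The table comes from explants cut from wild-type embryos at stage 11.5. Pieces of neuroectoderm were joined as pairs by their inner faces and pinned to agarose for 3 h. According to the paper they were lysed after this time, so the RNA is of older tissue than at cutting. Poly(A) RNA of 3 control samples, pinned without stretching, and 3 stretched samples was sequenced. The table holds no column for a single sample. The fold change and test columns of the authors' own comparison were not used, so no difference between stretched and control explants is given for any Wnt gene. What is described is the level of each Wnt gene over the 6 libraries and, where it could be recovered, its reads in each library.

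Wnt proteins are secreted, lipid-modified signaling molecules. The enzyme Porcupine attaches the lipid, Wntless carries the protein to the cell surface, and Frizzled receptors bind it on the receiving cell. With the co-receptor Lrp5 or Lrp6 a Wnt protein stabilises beta-catenin, which enters the nucleus and acts with Tcf and Lef factors. With Ror2, Ryk or Ptk7 it acts without beta-catenin on cell polarity and movement. In the Xenopus gastrula, wnt8a is made in the ventral and lateral marginal zone and favours posterior and ventral fates, whereas wnt5 and wnt11 genes are known for their part in convergent extension.

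Each gene has 1 value, its average log2 CPM, which is the base-2 logarithm of its reads scaled to a common library total. Genes without a read share the lowest value of the table, a log2 CPM of -2.08, since a small prior count is added before averaging. Just above it the values form steps. At the first step there are 6 distinct values, at the second 21 and at the third 56, which are the numbers of ways in which 1, 2 and 3 reads can fall into 6 libraries. Each step equals 1 read. From these values the relative sizes of the libraries could be fitted, and from a row's value the whole reads that it had in each library could be solved. The effective library sizes were 7501537, 7561003, 8160082, 8695746, 9095337 and 9664511 reads, and the libraries are numbered 1 to 6 in this order. The paper states that more reads than this were generated for each sample, and the reason for the gap was not examined. The column carries no sample name, so a library is not assigned here to a sample or a condition. A difference between libraries can therefore come from stretching or from variation between replicate explants, and these cannot be told apart here. Reads per library were obtained for 27 of the 30 Wnt rows, of which 19 had reads. The 3 rows with the most reads were not solved, and for these the reads over all libraries were computed from the average. This conversion is not exact. It gave 198.1 reads for bcl9l.S and 170.7 for rspo2.L, which had 199 and 170 when solved. Its error is not part of the intervals of these rows and was not measured at their depth. Intervals are exact 95% Poisson intervals and cover counting error only. Reads and CPM are not scaled by transcript length.

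Most Wnt rows had few reads or none. At least 1 read was present for 22 of the 30 rows (73.3%), close to the 70.7% of all rows of the table. The other 8 had no read in any library, while 11 had 1 to 5 reads, 5 had 6 to 32 and 6 had more than 50. A log2 CPM above 0, which corresponds to about 38.7 reads over the 6 libraries, was reached by 6 Wnt rows (20%), against 44.4% of all rows of the table. Among rows of Frizzled receptors it was reached by 14 of 17 (82.4%) and among rows of secreted Wnt antagonists by 11 of 20 (55%). The antagonist rows include both copies of szl, a secreted Frizzled-related gene known mainly for regulating BMP signaling. The median log2 CPM was -1.71 for Wnt rows, 3.94 for Frizzled rows and 0.19 for the antagonist rows. These shares are a description, with no test. In bulk samples such as these, fewer cells of a type and less RNA per cell cannot be told apart.

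**Figure D1:**
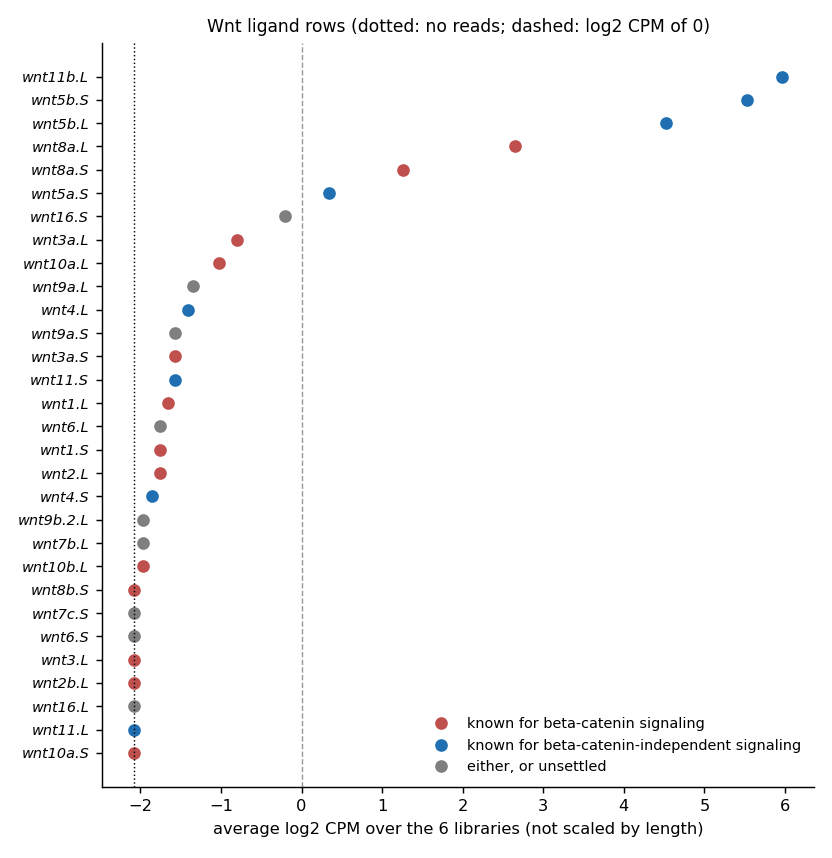
Average log2 CPM (x axis) of the 30 Wnt ligand rows (y axis), colored by the signaling branch to which the gene was assigned; the dotted line marks rows without reads (-2.08) and the dashed line a log2 CPM of 0. The 6 rows right of the dashed line are copies of wnt11b, wnt5b, wnt8a and wnt5a, and 8 rows lie on the dotted line.

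Most reads of the family belonged to wnt11b and wnt5b, both known for a part in convergent extension. wnt11b is also supplied maternally, and the maternal ligand is known for beta-catenin signaling in axis formation. wnt11b.L had a log2 CPM of 5.96, or about 3149 reads (interval 3040 to 3261). wnt5b.S had a log2 CPM of 5.52, or about 2321 reads (2228 to 2417). wnt5b.L had 4.53, or about 1157 reads (1091 to 1226). These 3 rows held 88.1% of the summed average CPM of the family, in which each row includes the prior count. With the lowest level subtracted from each row the share was 92.0%. In reads, they held about 6627 of the 7203 of the family. In CPM, wnt11b.L stood above 92.1% of all rows of the table, wnt5b.S above 89.6% and wnt5b.L above 83.2%.

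Of 8 rows of genes known for beta-catenin-independent signaling (wnt4, wnt5a, wnt5b, wnt11 and wnt11b), 4 were above a log2 CPM of 0 and 1 was without reads. Of 13 rows of genes known for beta-catenin signaling (wnt1, wnt2, wnt2b, wnt3, wnt3a, wnt8a, wnt8b, wnt10a and wnt10b), 2 were above 0, both of them wnt8a copies, and 4 were without reads. None of the 9 remaining rows (wnt6, wnt7b, wnt7c, wnt9a, wnt9b.2 and wnt16) was above 0. The branch of each gene was set from textbook knowledge. A Wnt protein can signal through either branch depending on the receptor, and wnt11b, which is known for both, could have been placed in another class.

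wnt8a was the only beta-catenin ligand with reads from both copies in all 6 libraries. In libraries 1 to 6, wnt8a.L had 62, 47, 22, 53, 41 and 80 reads, which correspond to 8.26, 6.22, 2.70, 6.09, 4.51 and 8.28 CPM. Over all libraries this gave 305 reads and 6.02 CPM (interval 5.36 to 6.73). Of 40 simulated rows of about this depth, 26 had a single solution, and these 26 were correct. wnt8a.S had 21, 7, 13, 27, 11 and 30 reads, and 2.15 CPM over all libraries (1.77 to 2.59). Libraries 1 and 6 had the highest level of wnt8a.L and library 3 the lowest, whereas wnt8a.S was highest in libraries 4 and 6 and lowest in library 2. The per-library intervals of wnt8a.L in library 3 (1.69 to 4.08 CPM) and library 6 (6.56 to 10.3 CPM) do not overlap. These are its lowest and highest libraries, picked after the values were seen, and its spread was not ranked among rows of like depth. Of 2 other rows of near depth, sfrp1.S (309 reads) spanned 2.57 to 9.06 CPM and znrf3.S (287 reads) 4.07 to 7.20 CPM.

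**Figure D2:**
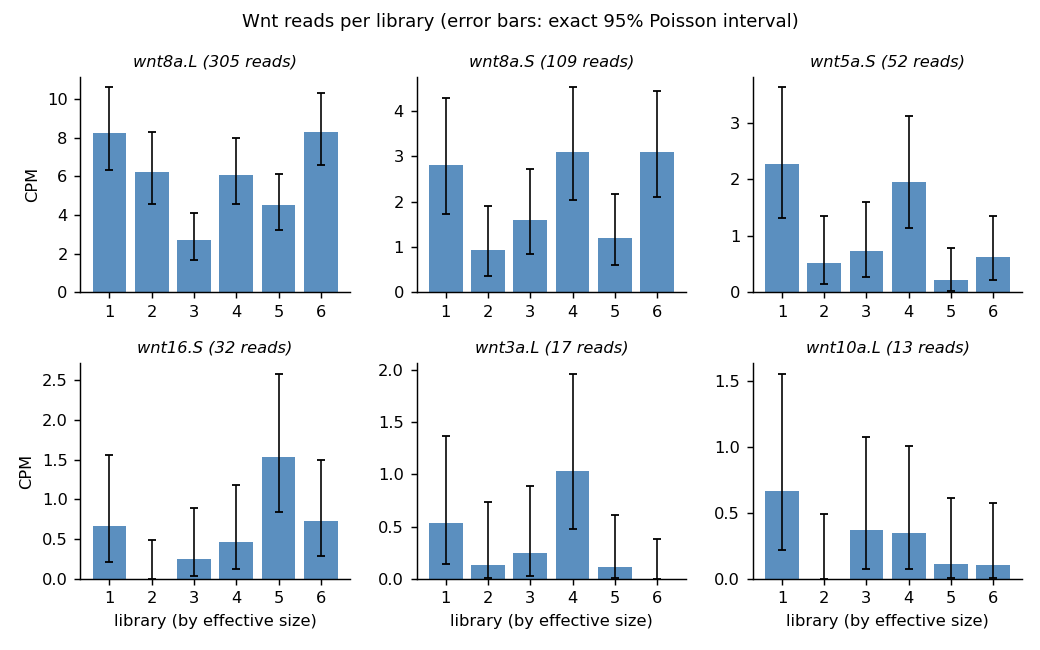
CPM (y axis) of 6 Wnt rows in each of the 6 unlabelled libraries (x axis, in order of effective size); error bars are exact 95% Poisson intervals. wnt8a.L spans 2.70 to 8.28 CPM, wnt5a.S is highest in libraries 1 and 4, and wnt16.S is highest in library 5.

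wnt5a.S, a ligand of convergent extension movements, had 17, 4, 6, 17, 2 and 6 reads in libraries 1 to 6. Its level was 2.27 CPM in library 1 and 1.95 in library 4, and between 0.220 and 0.735 CPM in the other 4 libraries. The 52 reads in all correspond to 1.03 CPM (interval 0.766 to 1.35). wnt3a.L, a ligand of the posterior body axis, had 4, 1, 2, 9, 1 and 0 reads. This gave 0.335 CPM in all (0.195 to 0.537), and 0.191 CPM without library 4, which alone held 52.9% of the reads. Its other copy, wnt3a.S, had 5 reads, of which 3 were in library 1 and 2 in library 4. wnt4.L had 7 reads, 3 of them in library 1 and 3 in library 4. wnt10a.L had 5, 0, 3, 3, 1 and 1 reads.

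wnt16.S had another distribution, with 5, 0, 2, 4, 14 and 7 reads and the highest level, 1.54 CPM, in library 5. Over all libraries it had 32 reads, or 0.631 CPM (interval 0.432 to 0.891). wnt16.L had none.

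To place this spread among other genes, an evenness index was computed for each row of 10 to 140 reads. It is the mean squared deviation from shares proportional to library size, relative to the expected reads, and it is near 1 when only counting error is present. The median over the 7661 rows solved was 2.00. The index was 5.67 for wnt5a.S, which is above 81.6% of the 1004 rows with a like total (within a factor of 1.2). It was 3.86 for wnt3a.L, above 87.6% of 936 such rows, and 3.83 for wnt16.S, above 78.6% of 1021. For wnt8a.S it was 3.89 (above 55.5% of 1134) and for wnt10a.L 1.83 (above 68.3% of 1100). Each of these Wnt rows was above the median of the rows of like depth, wnt8a.S only slightly. wnt11b.L, wnt5b.L and wnt5b.S, which hold most reads of the family, were not solved and have no index. The ranks therefore do not describe the family as a whole. The index of wnt8a.L was 6.59, but its 305 reads lie above the range of the compared rows, so it was not ranked.

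**Figure D3:**
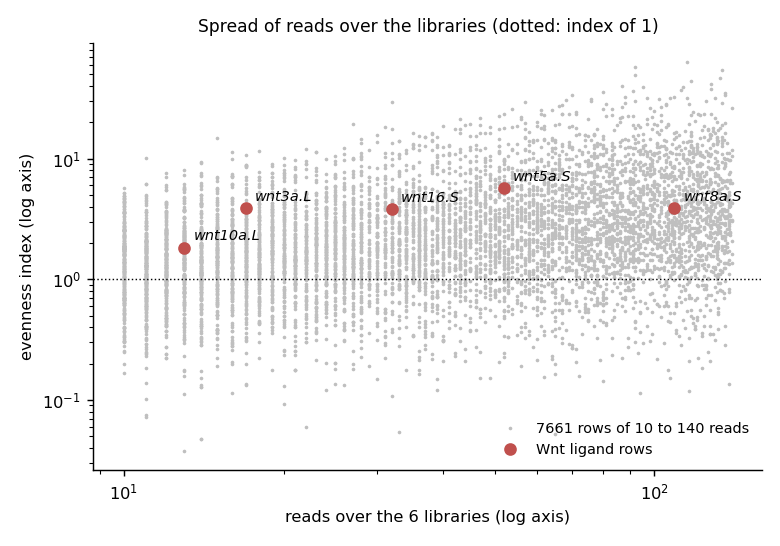
Evenness index (y axis, log scale) against reads over the 6 libraries (x axis, log scale) for 7661 rows of 10 to 140 reads in gray and for the Wnt ligand rows of this range in red; the dotted line marks an index of 1. wnt5a.S (5.67), wnt3a.L (3.86) and wnt16.S (3.83) lie within the cloud of other rows.

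Some rows of presomitic and myogenic mesoderm, and some rows of other lists, differed more widely between the libraries than the Wnt rows. The evenness index was 28.1 for msgn1.L, 32.2 for tbx6.S, 49.7 for myf5.L and 29.2 for myf5.S. Each was above at least 98.2% of rows with a like total. For msgn1.S it was 2.92 (above 70.5%) and for evx1.S 7.13 (above 76.0%). Outside mesoderm it was 26.7 for gata6.S and, among secreted antagonists, 26.9 for sfrp1.L and 18.2 for frzb2.S. sfrp1.L had 51 of its 87 reads in library 1, and frzb2.S had 23 of 31. Other rows of these lists were even, with 0.133 for dkk3.S and 0.308 for gata5.L. msgn1.L, which encodes a regulator of presomitic mesoderm, had 48, 3, 4, 41, 3 and 6 reads in libraries 1 to 6. Like wnt5a.S and wnt3a.L, it had its most reads in libraries 1 and 4. So did rows outside mesoderm, among them the endoderm row gata6.S (33 and 53 reads) and the neural row ncam1.S (29 and 33). Other endoderm rows differed, such as gata4.S, with its most reads in library 2. The share of all solved rows with most reads in libraries 1 and 4 is not given here. The pattern therefore does not set the named rows apart from others. tbx6.S, a T-box gene of paraxial mesoderm, had 55, 6, 7, 11, 3 and 6 reads. The myogenic factor gene myf5.L had 67, 5, 7, 9, 2 and 2 reads, and myf5.S had 29, 1, 1, 0, 0 and 1. These genes were named after their values were seen. The mesoderm list was planned with 12 genes, of which 6, wnt8a among them, had rows under the names used. myod1, mesp1, ventx1, ventx2, noto and chrd matched no row, so the list covers only a part of the mesoderm. It held 9 rows other than wnt8a, of which 6 were solved and none of these was without reads. The rows tbxt.L, tbxt.S and evx1.L, with about 2885, 5605 and 482 reads, were not solved and hold most reads of the list, so the level of the whole list in each library is not known. The summed level of the 6 solved rows was 31.1, 4.36, 6.50, 11.04, 1.32 and 3.00 CPM in libraries 1 to 6. Of the 6 rows, 5 were highest in library 1, and the exception was evx1.S, a gene of the ventral and posterior mesoderm, with 24, 17, 29, 28, 2 and 11 reads.

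**Figure D4:**
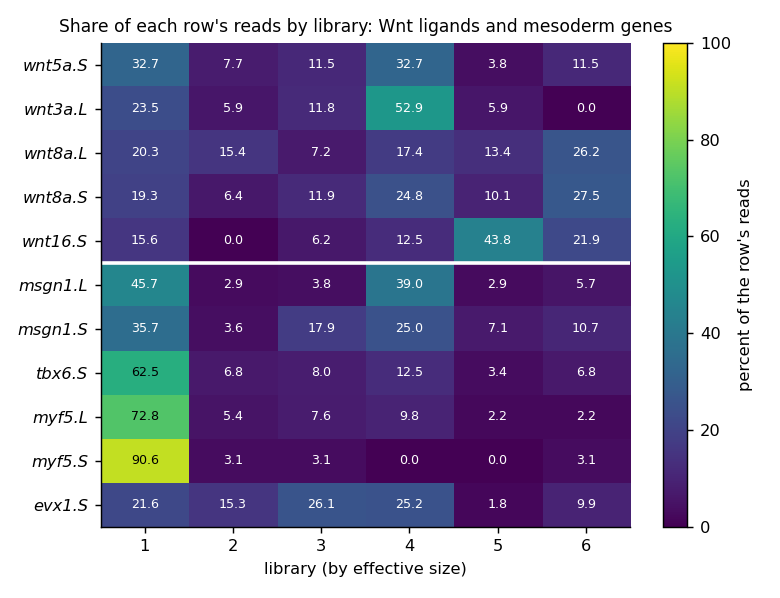
Percent of each row's reads (color and printed value) in libraries 1 to 6 (x axis) for 5 Wnt rows (above the white line) and 6 mesoderm rows (below it). wnt5a.S has 32.7% of its reads in each of libraries 1 and 4, and myf5.S has 90.6% in library 1.

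Library 1 stood apart more widely. It held the highest level of 23.3% of the rows of 10 to 140 reads, against 11.9% to 18.7% for each of the other libraries. Without library 1 the level of wnt5a.S was 0.811 CPM in place of 1.03, and that of wnt8a.L 5.63 in place of 6.02. For these rows library 1 was not alone in this. wnt5a.S was at 0.834 CPM without library 4, and wnt8a.L at 5.49 without library 6. In library 4, where the 6 solved mesoderm rows summed to 11.04 CPM, wnt5a.S was at 1.95 CPM and wnt3a.L at 1.03. In library 1, where these mesoderm rows summed to 31.1 CPM, wnt5a.S was at 2.27 CPM and wnt3a.L at 0.533. wnt8a.L was at 8.28 CPM in library 6, with a mesoderm sum of 3.00 CPM, and at 8.26 in library 1. Whether the amount of mesoderm in the explants has a part in the Wnt levels was not tested.

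Markers of several germ layers were present in the averages. All 19 rows of neural genes were above a log2 CPM of 0, with sox3.S at 8.07, sox3.L at 7.60 and zic1.S at 7.03. All 16 rows of epidermal genes were above 0 as well, with the keratin krt12.5.S at 9.89. Among mesoderm rows 9 of 11 were above 0 (2 of these being wnt8a), with tbxt.S at 6.79, and among endoderm rows 14 of 17. The median of the endoderm rows was 0.88, and their gata and sox17 rows lay between -0.76 (gata4.L) and 1.26 (gata4.S). The rows with the most reads were those of a2m, foxa4 and vegt, with a2m.S at 6.78, and foxa4 and vegt are also known from mesoderm. These 5 rows were not solved. The other 12 endoderm rows summed to 26.6 CPM in library 4, 21.9 in library 1 and 6.16 to 14.2 in the others. Neural genes were thus present, as the paper's description of the explants as neuroectodermal says. Genes of epidermis, mesoderm and endoderm were expressed beside them. According to the paper, the explants included marginal zone, where tbxt is expressed in the outer layers, so its expression was not regarded as surprising. The median log2 CPM was higher for the epidermal rows (8.11, range 2.90 to 9.89) than for the neural rows (5.84, range 1.39 to 8.07). These are medians of different listed genes without length scaling, so they do not compare the amounts of the tissues.

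wnt5b and wnt8a were the only Wnt genes with both copies above a log2 CPM of 0, and they were unequal in opposite directions. wnt5b.S was 2.00-fold above wnt5b.L, and wnt8a.L 2.62-fold above wnt8a.S on the scale of the average CPM. Such differences were common. Among 4716 homeolog pairs with both rows above 0 the median absolute difference was 1.0 on the log2 scale, and 49.8% of the pairs differed by less than wnt5b and 63.0% by less than wnt8a. In whole reads, wnt8a.L had more than wnt8a.S in each of the 6 libraries. The share of .L was 73.7% over all libraries (exact 95% binomial interval 69.1 to 77.9%). It ran from 62.9% in library 3 (44.9 to 78.5%) to 87.0% in library 2 (75.1 to 94.6%). Reads that match both copies could have been assigned to either.

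**Figure D5:**
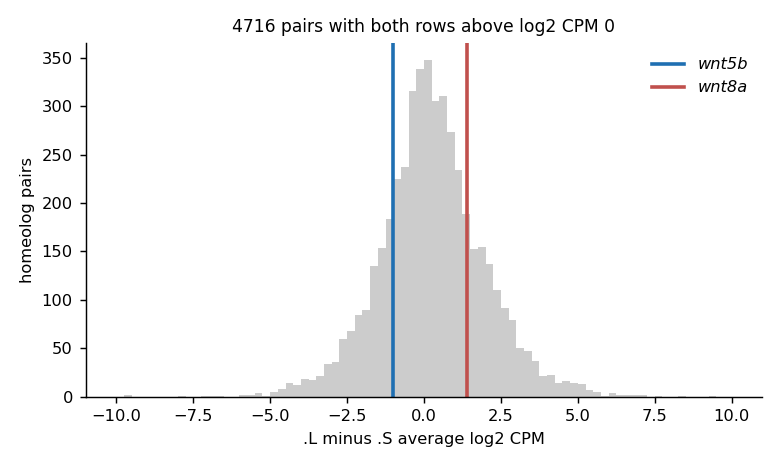
Distribution of the difference in average log2 CPM between .L and .S rows (x axis) over 4716 homeolog pairs (y axis, number of pairs), with wnt5b and wnt8a as vertical lines. wnt5b stands at -1.0 and wnt8a at 1.39, both within the bulk of the pairs.

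In the other 8 pairs both copies were below a log2 CPM of 0. wnt10a.L had 13 reads and wnt10a.S none, whereas wnt11.S had 5 and wnt11.L none. wnt6.L had 3 reads and wnt6.S none. Both copies of wnt1 (4 and 3 reads), of wnt3a (17 and 5), of wnt4 (7 and 2) and of wnt9a (8 and 5) had reads, with the .L copy given first.

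The rows without reads were those of wnt2b.L, wnt3.L, wnt6.S, wnt7c.S, wnt8b.S, wnt10a.S, wnt11.L and wnt16.L. A count of 0 allows up to 3 reads, or 0.0592 CPM over the 6 libraries, by the usual upper limit for a count of 0. The exact Poisson interval used for the other rows reaches 3.69 reads, or 0.0728 CPM. A lower level in these rows cannot be told apart from none. Among these genes, wnt8b is known from the developing forebrain. wnt7b.L, wnt9b.2.L and wnt10b.L had 1 read each, and wnt2.L had 3.

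Wnt genes lie next to each other at several places of the genome, and 6 such neighboring pairs were found among the protein-coding genes of the RefSeq assembly. Neither member was above a log2 CPM of 0 in any of the 6 pairs. They were wnt1.L with wnt10b.L (4 and 1 reads), wnt9a.L with wnt3a.L (8 and 17), wnt9a.S with wnt3a.S (5 and 5), wnt3.L with wnt9b.2.L (0 and 1), wnt10a.L with wnt6.L (13 and 3) and wnt10a.S with wnt6.S (0 and 0). The reads of wnt9a.S and wnt3a.S fell into the same libraries, 3 in library 1 and 2 in library 4. The copies on the other subgenome did not share this, since wnt9a.L had 4 of its 8 reads in library 5. Equal values are common at this depth, since 555 rows had 5 reads but only 199 distinct values, so the match carries little weight. wnt5a, wnt5b, wnt8a and wnt11b, which had rows above a log2 CPM of 0, were in none of these pairs.

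Genes for the export and reception of Wnt proteins had reads in all rows listed, and most of these rows were above a log2 CPM of 0. Wntless had log2 CPM values of 4.70 (wls.L) and 4.65 (wls.S), and porcn.L, the row of Porcupine, 3.35. notum.L, which encodes an enzyme that removes the lipid from Wnt proteins, had 4.54. Of 7 rows of secretion and inactivation genes, 5 were above a log2 CPM of 0, and the fewest reads, 5, belonged to trabd2b.L. Among 25 rows of receptors and co-receptors, 22 were above 0 and none was without reads. The most reads belonged to fzd7.L (8.34), ptk7.L (8.23) and ryk.L (7.28), and the fewest to fzd9.L with -1.34. These counts are a description, and their difference from the count of the ligands was not tested.

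Of 16 rows of cytoplasmic components, 15 were above 0. ctnnb1.L and ctnnb1.S, which encode beta-catenin, had 10.7 and 10.6, csnk1a1.L had 9.40, and dvl1.L had 3 reads. Of 14 rows of nuclear factors, 11 were above 0, with the most reads for bcl9.L (8.03), tcf7l1.S (7.54) and bcl9.S (6.98) and the fewest for pygo1.S, which had 2. These values are levels on the log2 CPM scale without length scaling, so they do not order the genes by transcript number.

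Among 20 rows of secreted antagonists, 11 were above 0 and 1, sfrp5.S, was without reads. The most reads belonged to szl.S (7.58), szl.L (6.70) and sfrp2.S (5.94). szl was listed as a secreted Frizzled-related gene but is known mainly for regulating BMP signaling, so its rows do not give a level of Wnt antagonists. The 16 solved antagonist rows summed to 36.5 CPM in library 1 and to 11.8 in library 4, with 13.4 to 20.1 in the others. The sum does not stand for each row, since wif1.L had its highest level, 3.56 CPM, in library 4, and sfrp1.S its lowest in library 3. The rows of szl and sfrp2, which hold most reads of the list, were not solved. Of 17 rows of R-spondins, Lgr receptors, Kremen receptors and the ubiquitin ligases znrf3 and rnf43, 10 were above 0, with lgr4.S (3.93), kremen2.L (3.28) and kremen2.S (2.82) having the most reads, and kremen1.L and rspo1.S were without reads. rspo2.L, an R-spondin named here after its values were seen, had 71, 7, 9, 47, 15 and 21 reads, with the most in libraries 1 and 4.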

How the data were processed

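Poly(A) RNA of 3 control and 3 stretched explant samples was sequenced. The authors mapped the reads with STAR according to the paper, whereas in the notes on processing from the submitters the tools are edgeR, DESeq, HTSeq and TopHat2, without a version. For the genome build and annotation, the sources used here give none. The authors deposited 1 table, with an average log2 CPM for each gene over the libraries of their fit, which was used here. Its 4 other value columns (log2 fold change, F, p-value and FDR) are the authors' own comparison and were not used, so no test between the conditions was made, and the test planned for values per sample did not apply.

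The average was modelled as a negative binomial mean over 6 libraries with a prior count of 2, scaled to library size. Library sizes and the dispersion (0.00509) were fitted to the values of 1 to 3 reads with a largest residual of 4.88e-15, and refined on rows of 20 to 60 reads. This model was devised after the table was seen. A row was solved if exactly 1 set of whole reads gave its value within 2e-14, which held for 7661 of 7662 rows of 10 to 140 reads. Rows above 310 reads were not tried. In a test on simulated data, 186 of 200 rows had a single solution, and 186 of these were correct. The acceptance limit had been tightened after a first simulation, in which a row of many reads was solved wrongly. The effective sizes (7501537 to 9664511, 50678216 in all) may include a scaling factor of the authors. PCR reads are not independent molecules.

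Names and gene order were taken from RefSeq (Xenopus laevis assembly v10.1), whose symbols match 39961 rows (93.9%). Each Wnt row was accounted for; of other lists the 3 highest and the lowest rows were named, with exceptions said in the text. The members and lists were chosen with earlier results of these data known. Alternatives were other level thresholds, subtraction of the lowest level, homeolog pairs above a log2 CPM of 0 and, added after seeing the data, other library sizes and leaving out each library. Computations used Python 3.11.15, numpy 2.4.6, scipy 1.17.1, pandas 2.3.3 and numba 0.67.0.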

Additional observations from a re-analysis of the deposited data

How the results depend on the processing

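Of 22 Wnt rows with reads, 14 remained when a margin of 0.5 (log2) above the lowest value was required, since a row with up to 4 reads lies within it. With a threshold of log2 CPM 1 there were 5 expressed Wnt rows and with one of -1 there were 8, in place of 6. The share of wnt11b.L, wnt5b.L and wnt5b.S in the summed CPM was 92.0% after the lowest level was subtracted from each row, in place of 88.1%. The median absolute difference between .L and .S rows was 0.64 over 10 Wnt pairs and 1.19 over the 2 pairs above a log2 CPM of 0. In the other pairs both copies were below 0, where the prior count draws the values together. For wnt6, with 3 and 0 reads, the difference was only 0.32. The 0.64 is therefore no measure of how alike the Wnt copies are. With library sizes from the values of 1 to 3 reads alone, 17 of 18 Wnt rows of 1 to 120 reads were solved with the same reads in each library. Leaving out 1 library at a time gave 0.191 to 0.414 CPM for wnt3a.L, 0.433 to 0.742 for wnt16.S and 0.811 to 1.202 for wnt5a.S.

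Scaling by transcript or coding length was not run, since no transcript lengths were used, so where rows are set in order it is by reads, not by transcripts. No paired analysis was possible because the table holds no values of named samples, and replicates could not be left out by name. Rows of few reads limit most statements on single libraries.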
